A study of Mus musculus with 4 samples.

Results

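Neutrophils were studied here among CD45+ leukocytes from healthy mouse liver, and 79 of 1593 kept cells (4.96%) belonged to them. They were chosen by their own transcripts. A neutrophil held at least 1% of its unique molecular identifiers (UMIs, 1 per captured RNA molecule) in S100a8 and S100a9, and at least 1 UMI of Retnlg, Csf3r, Cxcr2, Mmp9 or Hdc. It held no UMI of the T cell genes Cd3d and Cd3e or of the B cell gene Cd79a. A cell was kept with 200 or more detected genes and no more than 10% mitochondrial UMIs, and a barcode seen in several libraries counted only in the library with at least 70% of its UMIs.

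The mice were PA-GFP C57BL/6, whose fluorescent protein is switched on by light, and every library had the treatment photoactivation. Of 4 libraries, 2 held cells of the portal vein (PV) zone, the side on which blood enters the liver, and 2 those of the central vein (CV) zone, where blood drains. The labels give no age and name no separate animals for the libraries of a zone. The p-values therefore cover the spread between libraries alone, and that spread can be technical. Both zones share the genotype, the choice of CD45+ cells and the photoactivation, and no library without photoactivation was analysed here.

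Neutrophils are short-lived granulocytes that are made in the bone marrow, circulate in blood and patrol the sinusoids of the liver. They fill their granules in a fixed order while they mature, first the azurophil granules, then the specific and last the gelatinase granules, and the RNAs of the early granules fade before the cells leave the marrow. Once in tissue they can release cytokines and chemokines such as IL-1β, CXCL2, CCL3 and CCL4, many of them driven by NF-kB, and CXCL2 in turn attracts more neutrophils through the receptor CXCR2.

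The promoters of the genes that carry the results are shown for 2 pairs, the calprotectin pair that defined the cells and the chemokines Cxcl2 and Ccl3, whose levels varied among the cells. Each run is read 5′ to 3′ on the gene's strand from the RefSeq window on GRCm38.p6 that ends 1 base before the gene's start, less any base that GENCODE vM21 gives as an exon of the gene. Capitals mark TTNNGNAA, a core of C/EBP sites, in the S100 pair, and the classical NF-kB consensus (kB motif) in the chemokine pair, each searched on both strands.
S100a8, chr3:90668821-90668977, plus strand: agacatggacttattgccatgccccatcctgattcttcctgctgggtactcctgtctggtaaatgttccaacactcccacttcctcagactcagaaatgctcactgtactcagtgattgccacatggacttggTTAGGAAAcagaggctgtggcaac
S100a9, chr3:90695722-90695971, minus strand: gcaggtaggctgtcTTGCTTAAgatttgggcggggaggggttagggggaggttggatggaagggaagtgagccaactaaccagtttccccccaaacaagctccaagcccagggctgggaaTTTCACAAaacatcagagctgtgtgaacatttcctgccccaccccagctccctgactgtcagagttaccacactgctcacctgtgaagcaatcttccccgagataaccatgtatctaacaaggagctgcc
Cxcl2, chr5:90903649-90903870, plus strand: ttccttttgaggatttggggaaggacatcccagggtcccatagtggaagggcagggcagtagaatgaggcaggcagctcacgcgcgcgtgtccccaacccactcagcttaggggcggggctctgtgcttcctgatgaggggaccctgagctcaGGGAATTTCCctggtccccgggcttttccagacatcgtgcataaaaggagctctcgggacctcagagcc
Ccl3, chr11:83649379-83649628, minus strand: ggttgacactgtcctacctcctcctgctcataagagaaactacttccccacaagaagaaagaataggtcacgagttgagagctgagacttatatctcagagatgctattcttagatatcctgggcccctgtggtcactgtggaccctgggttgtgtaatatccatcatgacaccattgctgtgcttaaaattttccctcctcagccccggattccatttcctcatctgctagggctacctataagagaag

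The Cxcl2 window held the kB motif once, beginning 97 bases before the start, and the Ccl3 window did not hold it. Of 32817 mouse promoter windows of 250 bases, 1641 held this motif. TTNNGNAA began 117 bases before the start of S100a8, and 236 and 130 bases before that of S100a9. The Cxcl2 and Ccl3 windows also held it, 236 and 100 bases before the start, where it is not in capitals, and 36.8% of all windows held it. Distances are counted from the RefSeq start, which for S100a8 and Cxcl2 lies downstream of the first GENCODE start. The motifs did not overlap in the windows shown. A match describes the letters only. The RefSeq table had a window for 6 of the 7 genes looked up, and Ccl4 was not among them.

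The rule set the neutrophils well apart from other cells on the values it used. The summed share of S100a8 and S100a9 ranged from 1.61% to 33.7% of a neutrophil's UMIs, with a median of 11.9%. Of all kept cells 1403 had no UMI of either gene, 105 lay above 0 and below 0.2%, and only 2 lay between 0.2% and the threshold, at 0.886% and 0.926%. These 2 cells held 31 and 20 UMIs of the supporting genes. The lowest 5 neutrophils lay between 1.61% and 1.92%. A further 4 cells were above 1% but held a Cd3d or Cd3e UMI, and were not counted as neutrophils.

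**Figure D1:**
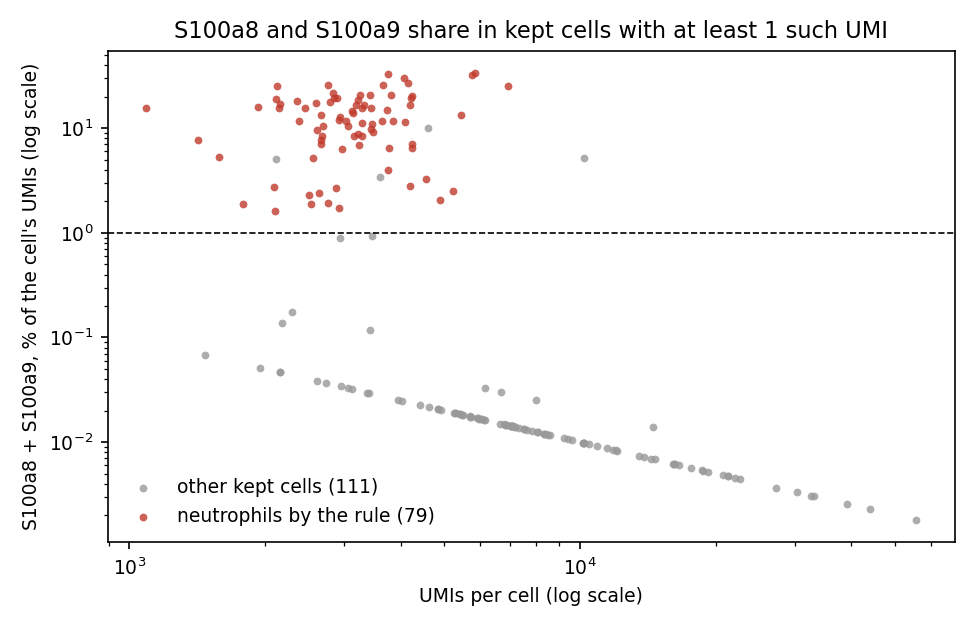
Share of UMIs in S100a8 and S100a9 (vertical axis, %, log scale) against UMIs per cell (horizontal axis, log scale) for the 190 kept cells with at least 1 such UMI; the dashed line is the 1% threshold. The 79 neutrophils (red) lie at 1.61% or more, and apart from the 4 grey cells with T cell UMIs above the line, only 2 other cells come near it.

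Other neutrophil markers, of which the rule asked for only 1, were present together. Csf3r, the receptor for the growth factor G-CSF, had a UMI in 79 of 79 cells. Hdc, which makes histamine, had one in 78, the gelatinase Mmp9 in 74, the secreted protein gene Retnlg in 72 and the chemokine receptor Cxcr2 in 69. All 5 were seen in 60 cells, 4 of them in 16, and fewer in 3. In T cells, which should lack S100a8, a UMI of it was found in 3.03% and 2.16% of cells of PV replicates 1 and 2, and in 6.02% and 0.606% in CV, at medians of 5834 to 6443.5 UMIs per cell. Since the rule used these genes, they do not test the label. Of the fixed neutrophil markers outside the rule, Il1r2, a decoy receptor for IL-1, had a UMI in 73 of 79 cells and Trem1, a receptor that amplifies inflammation, in 52. Ly6g, the antigen most used to sort mouse neutrophils, was low, with 23 UMIs in 9 cells.

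Little RNA was captured per neutrophil. Their median was 3140 UMIs and 1015 genes per cell, against 6044 UMIs and 1949 genes in other kept cells, and their median mitochondrial share was 0.213% against 2.37%. The medians by library were 3731 and 2871 UMIs in PV replicates 1 and 2, and 3150 and 2755 in CV replicates 1 and 2. In all, the neutrophils held 256098 UMIs, with 67913, 38606, 112646 and 36933 in the same order. A gene with no UMI in them could still be at up to 11.7 CPM (a gene's share of the summed neutrophil UMIs, scaled to 1000000), the level of 3 counts, which covers counting error only. Since each molecule is counted once near its 3′ end, CPM values of different genes were compared without scaling by length.

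Marker genes of other cells were rare. None of 7 basophil and mast cell genes was detected, and of 10 monocyte genes Ccr2, F13a1, Ms4a4c, Ace and Cx3cr1 were at 0. The other 5 monocyte genes had 60 UMIs in all, or 234 CPM, of which Csf1r had 29 UMIs in 22 cells, Ly6c2 15 and Plac8 13. The eosinophil list had 7 UMIs, the T and NK cell list 9, the B and plasma cell list 24, the hepatocyte list 20 and the sinusoidal endothelial list 5. The rule itself kept out cells with a UMI of Cd3d, Cd3e or Cd79a, so the low T and B cell sums follow in part from it. Macrophage genes summed to 14.7 and 51.8 CPM in PV replicates 1 and 2, and to 799 and 135 CPM in CV replicates 1 and 2. A single neutrophil of CV replicate 1, with 5230 UMIs and 2047 genes, held 81 of the 98 macrophage UMIs and 77 of the 117 UMIs of the dendritic cell list. Of the deposited barcodes 282 occurred in more than 1 library, and the rule on shared barcodes removed 4 that otherwise met the neutrophil rule. Most of what it removed was not neutrophils. The filters on genes and mitochondrial UMIs alone left 551 and 646 barcodes in PV replicates 1 and 2, and 554 and 546 in CV. With the rule on shared barcodes, 333 and 512 were kept in PV, and 372 and 376 in CV.

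The next values describe the neutrophils as the rule found them, so differences from other cells carry no test. S100a9 and S100a8, the subunits of calprotectin, a protein that binds calcium and zinc, were their most abundant transcripts among the listed genes. S100a8 lay on chromosome 3 at 90668978 to 90670035, close to S100a9 at 90692632 to 90695721 (GENCODE vM21, GRCm38). S100a8 stood at 54849.6 and 86515 CPM in PV replicates 1 and 2, and at 61884 and 65009.6 CPM in CV replicates 1 and 2. S100a9 stood at 68882 and 103611 CPM in the PV libraries, and at 66554 and 74622 CPM in CV. PV replicate 2 was the highest of the 4 libraries for both genes, and the zones overlapped.

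The rest of the S100 family split. S100a6 and S100a11, which also encode calcium-binding proteins, had 6037 and 7946 CPM over all neutrophils, against 533 and 541 CPM in other kept cells. S100a10, the partner of annexin A2, had 0 UMIs in 79 neutrophils and 559 CPM in other kept cells. S100a4 had 2 UMIs, or 7.81 CPM, against 247 CPM. These neutrophils thus held abundant RNA of 4 family members and next to none of the other 2.

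Genes of early maturation were not detected or nearly so. Of the 8 azurophil granule and precursor genes, among them Mpo (myeloperoxidase), Elane (elastase), Prtn3 and the cell cycle genes Mki67 and Top2a, none had a UMI. Of the specific granule genes, Camp (cathelicidin) had 0 UMIs, Ltf (lactoferrin) 2 and Ngp 4. Chil3 had 36 UMIs in 7 cells, Ly6g 23 in 9 and Cebpe 9 in 7. Cd177 had 1 UMI in each PV library, and 7 and 4 UMIs in CV. Lcn2 and Lyz2 of that list were well detected. Lcn2, which encodes lipocalin 2, a protein that withholds iron from bacteria, stood at 1811 and 1166 CPM in the PV libraries and 1678 and 1191 CPM in CV. Lyz2 (lysozyme) had 2650.5 and 1943 CPM in the PV libraries and 1696 and 1977 CPM in CV, below its 3940 CPM in macrophages.

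Genes of the gelatinase granules and of mature cells were high, and all 11 of that list were detected. Retnlg led it, at 5375 and 11060.5 CPM in PV replicates 1 and 2 and at 11150 and 7852 CPM in CV replicates 1 and 2. PV replicate 1 was the lowest for Retnlg, and the other PV library was close to the highest. Slpi, an inhibitor of elastase, had 3631 CPM over all neutrophils, Hdc 2261, Mmp9 1433, Wfdc21 1429 and Pglyrp1, a peptidoglycan-binding protein, 1289 CPM. Mmp8, the neutrophil collagenase, was lower at 469 CPM. Of the stefin A family, inhibitors of cathepsins, 3 of the 8 genes matched in the files had a UMI. Stfa2l1 and Gm5483 had 461 and 617 CPM, but a single cell held 39 of the 158 Gm5483 UMIs, and near-identical copies make the split between these genes uncertain.

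Receptors that steer and keep neutrophils were detected, with all 16 chemotactic and adhesion genes and all 11 growth factor and survival genes having at least 1 UMI. Some were sparse, with Cxcr1 in 4 and Csf2rb2 in 1 of the 59 cells thinned to 2645 UMIs as described below. Ptafr, the receptor for platelet-activating factor, had 1738 CPM, Cxcr4, which holds neutrophils in marrow, 1429 CPM, and Ccr1 1054 CPM. Cd44, which binds hyaluronan, had 1234 CPM and Selplg, the ligand of P-selectin, 972 CPM. Cxcr2 stood at 869 and 777 CPM in the PV libraries and at 666 and 649.8 CPM in CV. Mcl1, the survival factor that neutrophils depend on, was the highest of the survival list at 4045 CPM, against 392.2 CPM in other kept cells. Csf3r followed at 2042 CPM. The 3 Bcl2a1 copies a, b and d are too alike to be counted apart reliably, and had 85.9, 300.7 and 66.4 CPM.

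**Figure D2:**
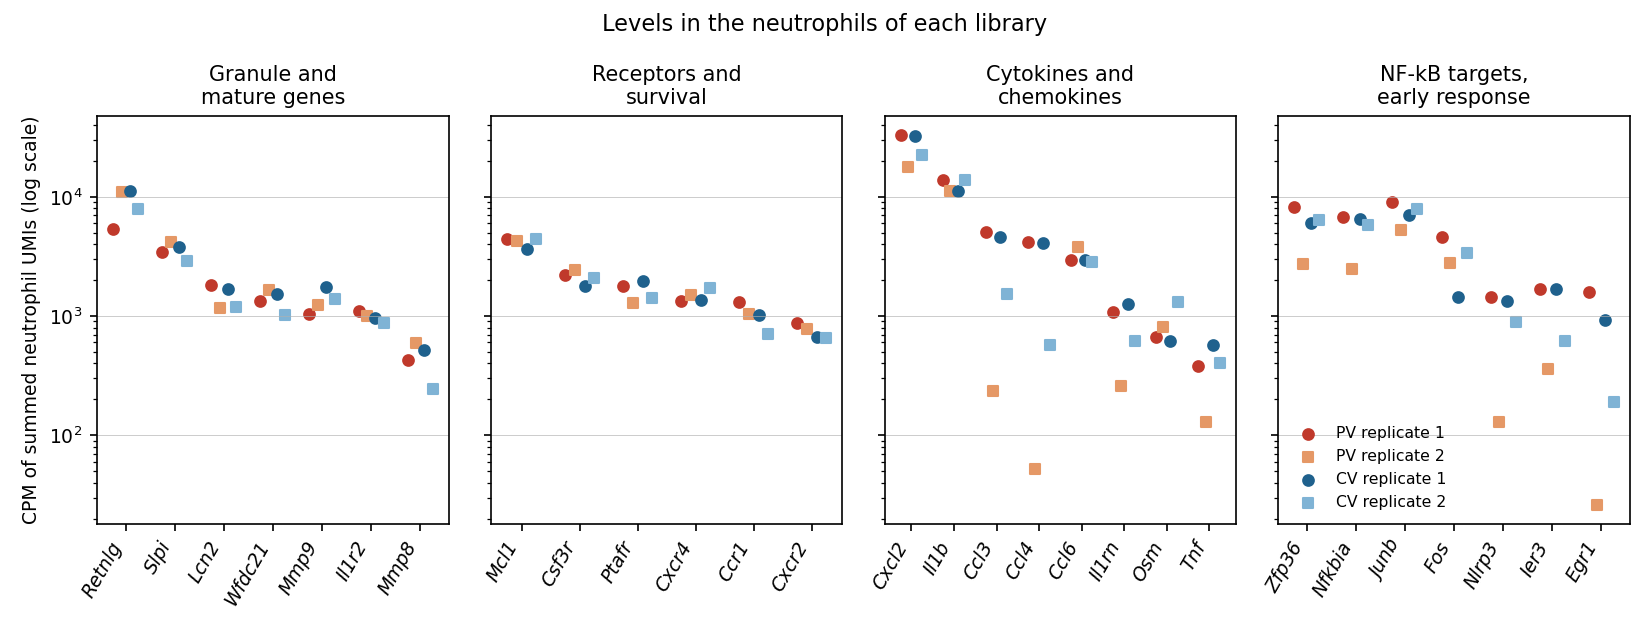
CPM of summed neutrophil UMIs (vertical axis, log scale) for genes of 4 groups, with 1 point per library (red and orange, PV; dark and light blue, CV; circles, replicate 1; squares, replicate 2). Mcl1 and Csf3r stay within 3622 to 4440.5 and 1784 to 2435 CPM, while Ccl3, Ccl4 and Egr1 are far lower in PV replicate 2 (233, 51.8 and 25.9 CPM) than in PV replicate 1 (5021, 4197 and 1590 CPM).

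Cytokine and chemokine RNA was abundant in these cells, and 14 of the 15 listed genes had a UMI. Cxcl2 stood at 33116 and 17847 CPM in PV replicates 1 and 2, and at 32464 and 22446 CPM in CV replicates 1 and 2. Il1b stood at 13753 and 11086 CPM in the PV libraries, and at 11088 and 13971 CPM in CV. Over all libraries Cxcl2 had 28989 CPM in neutrophils against 429 CPM in macrophages, and Il1b 12210.2 against 743 CPM. In T cells Cxcl2 and Il1b had 4.28 and 3.21 CPM.

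Not every inflammatory cytokine was present. Il6 had 0 UMIs, against 64.3 CPM in macrophages, and Cxcl1 had 7 UMIs and Il1a 9. Ccl6, a chemokine of myeloid cells, was even across libraries at 2930 and 3782 CPM in the PV libraries and 2956 and 2843 CPM in CV. Ptgs2, which makes prostaglandins, had 2007 CPM, Il1rn, the antagonist of the IL-1 receptor, 972 CPM, Osm (oncostatin M) 758 CPM and Tnf 430 CPM.

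Ccl3 and Ccl4, neighbouring chemokine genes on chromosome 11, differed far more between libraries than Cxcl2 did. Ccl3 had 341 and 9 UMIs in PV replicates 1 and 2, and 517 and 56 UMIs in CV replicates 1 and 2, or 5021, 233, 4590 and 1516 CPM. Ccl4 had 285, 2, 464 and 21 UMIs in the same order, or 4197, 51.8, 4119 and 569 CPM. In each zone the library numbered 1 was thus the higher. Macrophages had Ccl4 at 1718 and 680 CPM in the PV libraries and at 1455 and 895 CPM in CV. In both libraries numbered 2, Ccl4 was thus lower in neutrophils than in macrophages. Without the 13 neutrophils that held any UMI of 11 macrophage, T, NK or B cell genes, Ccl3 was at 5033, 335, 5626 and 1969 CPM and Ccl4 at 4441, 74.5, 4712 and 780 CPM.

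Several targets of NF-kB were, like Ccl3 and Ccl4, higher in both libraries numbered 1 than in both numbered 2. Nfkbia, the inhibitor that NF-kB induces against itself, stood at 6818 and 2461 CPM in the PV libraries and at 6543 and 5794 CPM in CV. Ier3 stood at 1679 and 363 CPM in the PV libraries and at 1696 and 623 CPM in CV, and the adhesion ligand Icam1 at 383 and 0 CPM in the PV libraries and at 346 and 190 CPM in CV. Of 13 NF-kB targets and pattern receptors with at least 20 UMIs, 9 were higher in both libraries numbered 1 than in both numbered 2, against 20.2% of all genes of that depth. With CPM taken without S100a8 and S100a9 it was 7 of 13, and the share of all genes was not computed for that scaling.

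This order, with both libraries numbered 1 above both numbered 2, was not particular to these targets. It was found for 5 of 6 NADPH oxidase genes, 5 of 10 cytokines and chemokines, 4 of 11 immediate early genes and 2 of 5 specific granule genes, and for 4, 5, 4 and 2 of them with the other scaling. It was less frequent for 3 of 9 interferon response genes, 3 of 14 chemotactic and adhesion receptors and 2 of 9 growth factor and survival genes. The same held for 2 of 10 transcription factors, 1 of 10 gelatinase granule and mature genes and 0 of 2 stefin A genes, against 20.2% of all genes. The reverse order, higher in both libraries numbered 2, was found for 4 of 4 S100 genes, against 18.8% of all genes. The other scaling leaves out S100a8 and S100a9, and with it both remaining genes, S100a6 and S100a11, kept this reverse order. The libraries numbered 1 also held more neutrophils and a higher median depth than the other library of their zone. What the shared number stands for is not given in the labels, and its part in these levels was not tested.

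Transcription factors of the late lineage were present. Junb had 7411 CPM and Cebpb, a C/EBP factor of mature and stimulated myeloid cells, 6708 CPM, against 868 and 346 CPM in other kept cells. Spi1, the myeloid master regulator PU.1, had 859 CPM. Gfi1, which acts in precursors, had 0 UMIs, and Cebpe, which drives the specific granules, 9. Egr1, an immediate early gene, stood at 1590 and 25.9 CPM in the PV libraries and at 923 and 190 CPM in CV.

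The genes that tissue handling is known to induce did not have like levels. Zfp36, Dusp1 and Fos had 6185, 4553 and 2753 CPM in neutrophils, against 431, 753 and 839 CPM in other kept cells. The heat shock genes Hspa1a, Hspa1b and Hsp90aa1 had 19.5, 23.4 and 113 CPM in neutrophils, against 691, 1033 and 620 CPM. All 14 genes of this list had a UMI in the neutrophils.

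The enzyme complex that makes superoxide, the NADPH oxidase, was represented by all 6 of its listed genes. Its small membrane subunit Cyba had 1300.3 CPM, the GTPase Rac2 1125 CPM and the cytosolic Ncf1 699 CPM. The catalytic subunit gene Cybb was low at 168 CPM, with 9 and 0 UMIs in the PV libraries and 31 and 3 UMIs in CV, and had 958 CPM in macrophages. Among interferon-responsive genes, all 12 detected, Ifitm2 had 3034 CPM and Ifitm1 1218 CPM, while Irf7 had 46.9 CPM against 355 CPM in macrophages.

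Outside the lists, the gene with the highest level relative to other cells was G0s2, an inhibitor of fat breakdown, at 7294 CPM against 22.6 CPM. It was followed by Hcar2, the receptor for niacin and ketone bodies, at 2886 against 13.1 CPM, and by the cystine transporter gene Slc7a11 at 1855 against 8.01 CPM. Next came Hp (haptoglobin), Acod1, which makes itaconate, and the MYC antagonist Mxd1, at 1714, 1531 and 2952 CPM. The others among the first 15 were Il1f9, Ccrl2, Asprv1, Msrb1, Lrg1, Gda, Thbs1, Plaur and Nlrp3, the last a sensor of the inflammasome that processes IL-1β.

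To compare single neutrophils at the same depth, each was thinned to 2645 UMIs, the 25th percentile, which left 59 cells (17, 8, 27 and 7 in PV replicates 1 and 2 and CV replicates 1 and 2) and left out 20. Il1b had a UMI in 59 of 59 thinned cells, and Cxcl2 in 55 of 59, with medians of 84 and 49.5 UMIs in the PV libraries and of 66 and 62 UMIs in CV. Unthinned, Cxcl2 had a UMI in 74 of 79. A planned test of neutrophils with against those without Cxcl2 was not run, because no library had at least 3 cells of both kinds. Nearly every neutrophil thus carried both cytokine RNAs.

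The UMIs of Ccl3 and Ccl4 were more concentrated in single cells. Ccl3 had a UMI in 35 of 59 thinned cells, namely 11 of 17 and 2 of 8 in the PV libraries and 17 of 27 and 5 of 7 in CV, and in 46 of 79 unthinned. The tenth of cells with the most UMIs held 59.7% of the Ccl3 UMIs and 78.8% of the Ccl4 UMIs, against 27.98% for Cxcl2 and 20.6% for Il1b. In B cells, at medians of 3492.5 to 4416.5 UMIs per cell, no Cxcl2 UMI was found. Ccl3 UMIs were found there only in CV replicate 2, in 2 of 58 cells. Ccl4 UMIs were found in 2 of 44 B cells of PV replicate 2, holding 61 UMIs. They were also in 1 of 26 B cells of CV replicate 1 and 2 of 58 of CV replicate 2. The highest thinned cell held 70 UMIs of Ccl3 and another up to 105 UMIs of Ccl4, while the median cell held 1 and 0.

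**Figure D3:**
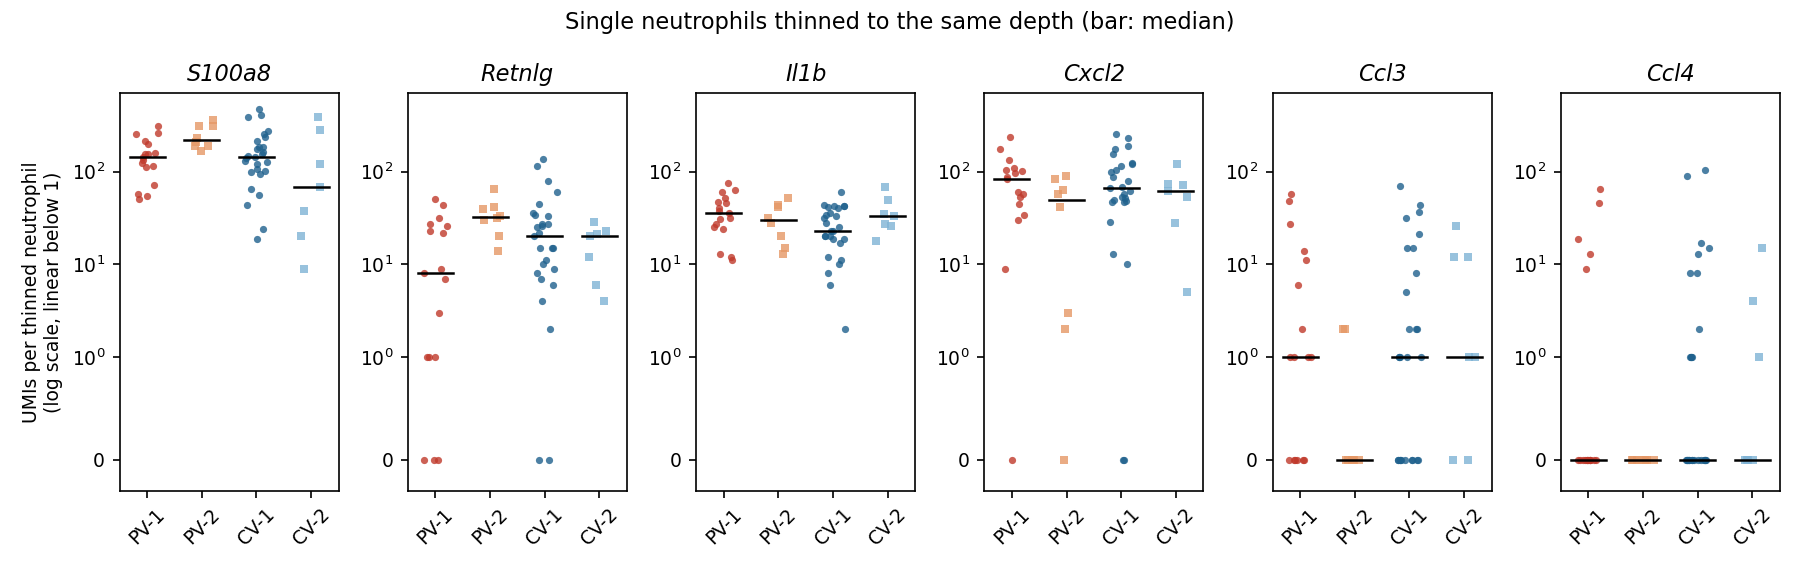
UMIs per neutrophil after thinning to 2645 UMIs (vertical axis, log scale, linear below 1) for 6 genes, with 1 point per cell, a bar at the median, and the 4 libraries on the horizontal axis. S100a8 and Il1b are above 0 in all 59 cells, whereas Ccl4 is at 0 in all 8 cells of PV replicate 2 and in most cells elsewhere.

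Neutrophils with and without a Ccl3 UMI after thinning were then set side by side, as a description, since the split was made on the same cells. Nfkbia averaged 20.1 UMIs in the 35 cells with Ccl3 and 8.5 in the 24 without, and was higher with Ccl3 in 4 of 4 libraries. Cxcl2 averaged 94.1 against 51.0 UMIs, also higher in 4 of 4. Tnf, Nlrp3 and Egr1 were likewise higher in 4 of 4, and Il1rn, Ccrl2 and Icam1 in 3 of 4 libraries. Il1b, at 33.8 against 27.9 UMIs, was higher in 2 of 4, and Tnfaip3 and Ptgs2 in 1 of 4.

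Genes of the mature list differed among themselves in this split. Slpi averaged 10.5 UMIs in cells with Ccl3 and 8.04 in those without, and was higher with Ccl3 in 3 of 4 libraries. Retnlg averaged 18.1 UMIs in cells with Ccl3 and 33.3 in those without, and was higher with Ccl3 in 1 of 4 libraries, and Mmp8 in 0 of 4. Within the libraries with most cells, Spearman's coefficient between Retnlg and Ccl3 was -0.37 over 17 cells of PV replicate 1 and -0.43 over 27 cells of CV replicate 1. The coefficient between S100a8 and S100a9 was 0.86 and 0.85, and between Ccl3 and Ccl4 it was 0.41 and 0.44. Cells of a library share its preparation, so these coefficients are given without a p-value.

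**Figure D4:**
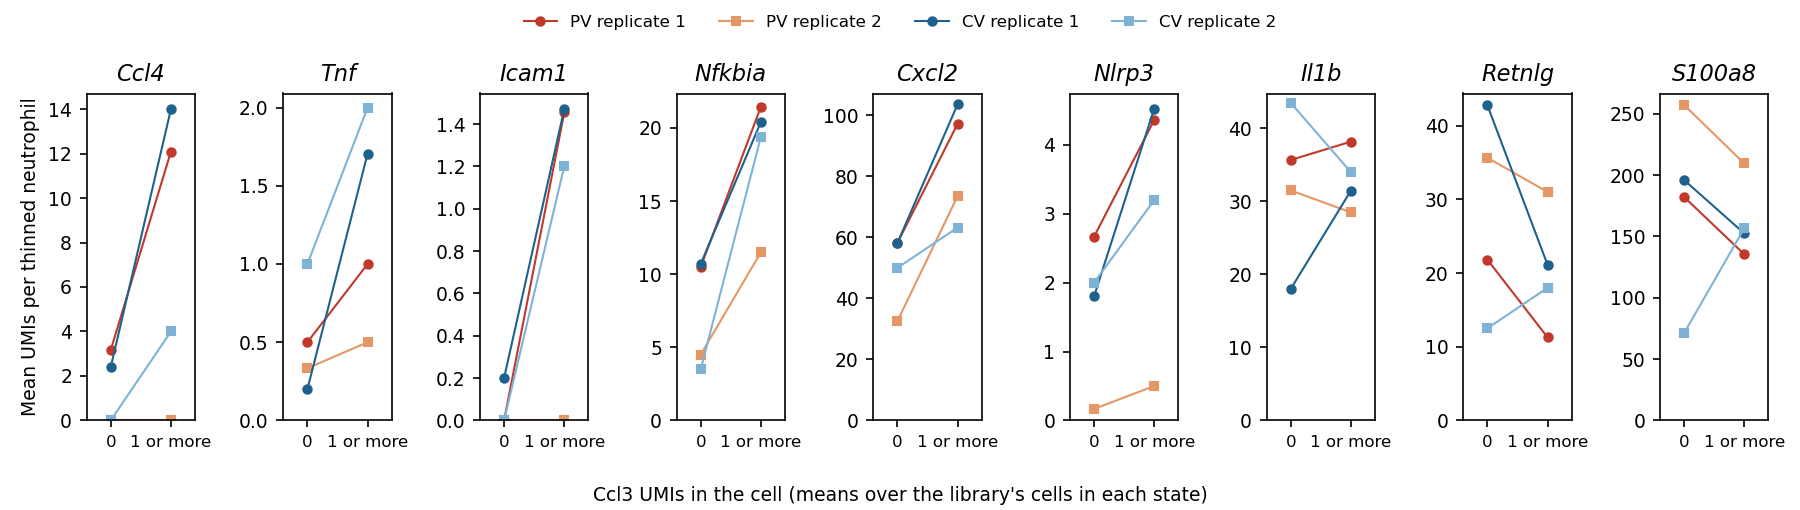
Mean UMIs per thinned neutrophil (vertical axes, each from 0) in cells without and with a Ccl3 UMI, with 1 line per library (red and orange, PV; dark and light blue, CV). The lines of Nfkbia and Cxcl2 rise in all 4 libraries, those of Il1b in 2 and that of Retnlg in 1; PV replicate 2 has only 2 cells with Ccl3 and CV replicate 2 only 2 without.

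The share of neutrophils was compared between the zones. Neutrophils were 19 of 333 cells (5.71%, 95% Wilson interval 3.68 to 8.74) in PV replicate 1 and 12 of 512 (2.34%, 1.35 to 4.05) in PV replicate 2. They were 35 of 372 cells (9.41%, 6.84 to 12.8) in CV replicate 1 and 13 of 376 (3.46%, 2.03 to 5.82) in CV replicate 2. The intervals cover counting error only. The zones overlapped, with CV replicate 2 below PV replicate 1. The means were 4.02% ± 2.38 in the PV libraries and 6.43% ± 4.21 in CV (SD, n = 2 each), a difference of -2.41 percentage points for PV minus CV, with an exact two-sided permutation p of 0.667, where 0.333 is the smallest this design allows. Without CV replicate 1 the difference was 0.567 points, the opposite direction. The shares also depended on the rule on shared barcodes, and all were lower with these barcodes kept. They were then 3.63% and 2.01% in PV replicates 1 and 2, and 6.498% and 2.56% in CV, with a difference of -1.71 points.

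Gene expression of the neutrophils was compared between the zones on UMIs summed per library, and no gene was called. Of 768 genes tested with edgeR's quasi-likelihood test, 0% passed a Benjamini-Hochberg adjusted p of 0.05. Unadjusted p was below 0.05 for 21 genes in edgeR and for 7 genes in DESeq2, which also called 0. None of the lists had a called member.

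None of the genes that defined or led the cells passed the test between the zones. The log2 fold change of PV against CV was 0.17 ± 0.26 (SE) for S100a8, 0.31 ± 0.24 for S100a9 and -0.20 ± 0.39 for Retnlg. It was -0.09 ± 0.35 for Cxcl2 and 0.01 ± 0.26 for Il1b. For Ccl3 it was -0.19 ± 1.05 and for Ccl4 -0.13 ± 1.32, where the spread within each zone was far above the difference. The edgeR adjusted p was 0.999 for each of these genes. For S100a9 the value rested on single libraries, at 0.59 without PV replicate 1 and 0.0066 without PV replicate 2. The rule chose the cells by S100a8 and S100a9, so the values of these 2 genes depend on its threshold. At a threshold of 2% they were -0.044 for S100a8 and 0.10 for S100a9.

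Over the 768 tested genes the median log2 fold change was -0.02, and 368 were above 0. Of 12 tested NF-kB targets and pattern receptors, 2 were above 0, with a median of -0.25, and of 10 tested cytokines and chemokines, 3, with a median of -0.16. Of 14 tested chemotactic and adhesion receptors 9 were above 0 (median 0.07), of 9 gelatinase granule and mature genes 6 (median 0.20), and of 10 immediate early genes 8 (median 0.30). None of these genes passed the test.

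Among genes higher in both PV than in both CV libraries, those with the smallest p did not pass. Dck, a kinase of nucleoside salvage, had 280 and 389 CPM in the PV libraries and 79.9 and 108 CPM in CV, a log2 fold change of 1.87 ± 0.51. Anxa1, whose protein annexin A1 limits neutrophil recruitment, had 486 and 751 CPM in the PV libraries and 293 and 190 CPM in CV, a log2 fold change of 1.25 ± 0.39. Mir142hg, Neurl3 and Zfp36l2 had log2 fold changes of 1.79, 1.29 and 0.83. The edgeR adjusted p was 0.999 for all 5.

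Among genes higher in both CV libraries, the smallest p belonged to Cks2, which encodes a small partner of cyclin-dependent kinases, and to mitochondrial genes. Cks2 had 16 and 13 UMIs in the PV libraries and 122 and 36 UMIs in CV, or 236, 337, 1083 and 975 CPM, of which 1 cell held 35 UMIs. Its log2 fold change was -1.87 ± 0.34 (edgeR adjusted p = 0.368), although Mki67 and Top2a were at 0. The mitochondrial ATP synthase gene mt-Atp6 had 294 and 259 CPM in the PV libraries and 1003 and 866 CPM in CV, with -1.73 ± 0.32 (edgeR adjusted p = 0.368). For mt-Co2, mt-Cytb and mt-Co1 the log2 fold changes were -1.59, -1.71 and -1.14 (edgeR adjusted p = 0.999).

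The mitochondrial genes were made a list only after these had been seen, so their count is a description. All 6 that were tested were lower in both PV than in both CV libraries, against 15.6% of all genes tested. The mitochondrial share of neutrophil UMIs was 0.222% and 0.142% in the PV libraries and 0.498% and 0.598% in CV. A group of 7 neutrophils, 5 in CV replicate 1 and 2 in CV replicate 2, exceeded 1% mitochondrial UMIs, and no PV neutrophil did. Without these 7 cells the log2 fold changes were -0.63 for mt-Atp6, -0.34 for mt-Co2 and -0.27 for mt-Co1, and that of Cks2 was -1.94 (edgeR adjusted p = 0.856), while mt-Cytb no longer passed the filter on low counts. Whether these cells differ in RNA quality was not tested.

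**Figure D5:**
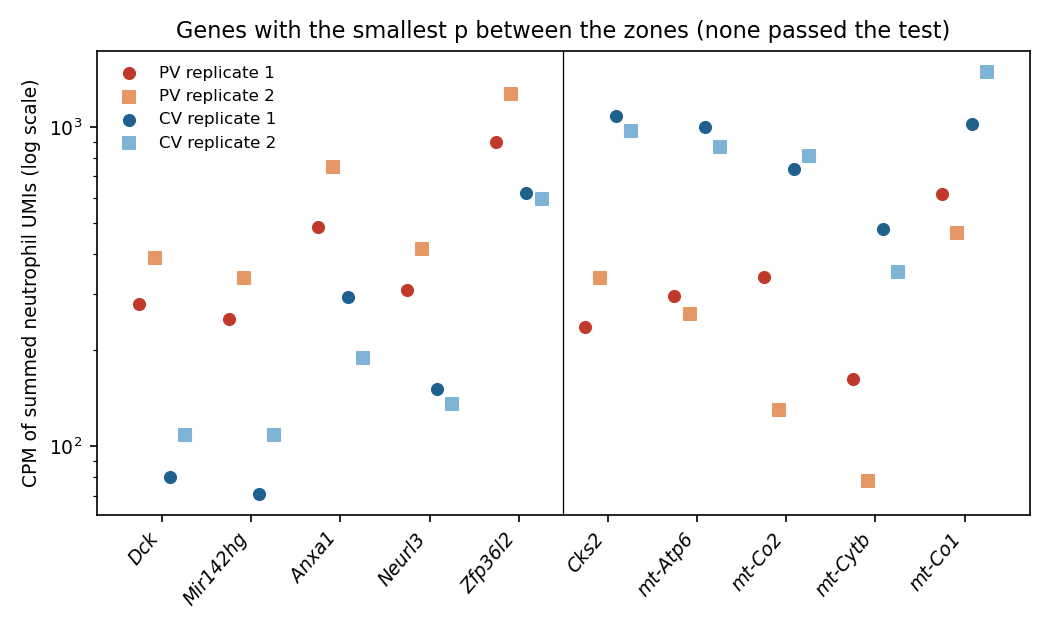
CPM of summed neutrophil UMIs (vertical axis, log scale) for the 5 genes with the smallest p and a higher level in PV (left of the line) and the 5 with a higher level in CV (right), with 1 point per library. The zones do not overlap in these genes by choice, since they were picked by p among genes without overlap. Of the 768 genes tested, 96 had no overlap and a higher level in PV, and 120 in CV. No gene passed the test, with the lowest edgeR adjusted p at 0.368.

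The zone result turned on PV replicate 1. Without it, 22 of 734 genes (3%) passed in edgeR, 5 higher in the PV libraries and 17 higher in CV, with the lone PV library assumed to vary like the CV libraries. Those higher in PV were Anxa1, Gda, Lamp2, Rgs1 and S100a9, by which the rule chose the cells. Those higher in CV included Ccl4 at -5.49, Ccl3 at -3.71, Egr1 at -4.49 and Nlrp3 at -3.10 on the log2 scale. These are the genes that were low in PV replicate 2, at 51.8, 233, 25.9 and 130 CPM, and high in PV replicate 1, at 4197, 5021, 1590 and 1443 CPM. Without PV replicate 2, Ccl3 was at 0.72 and Ccl4 at 0.80, the opposite direction, and 0 genes passed. Without CV replicate 2, and in a fit with no filter on low counts, Rgs1, a regulator of G protein signalling, alone passed, with 12 and 17 UMIs in the PV libraries and 0 in CV, all of them in 2 cells.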

How the data were processed

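The labels give 2 zones with 2 libraries each, and libraries are numbered as in their titles. Each deposited file holds untransformed UMI counts (genes by barcodes), made with 10x Chromium 3′ v3.1 chemistry per the labels' protocols and with Cell Ranger 4.0.0 and mm10 per the submitters' processing notes. Deposited totals were 3063778 and 4373488 UMIs in PV replicates 1 and 2, and 2741760 and 2916638 in CV. Symbols were matched for 32158 of 32285 identifiers. The members, lists and alternatives were chosen with earlier results of these data known. Named genes are those of the rule and up to 6 per list by level. The 15 with the highest ratio to other cells (20 CPM added) are also named. So are the 5 per direction with the smallest p among properly named genes whose zones did not overlap. Low or undetected list members, Lyz2, Anxa1, Cxcr2, the genes set beside Ccl3 in single cells and Rgs1 were singled out after their values were seen. Counts were summed per library and tested with edgeR 4.0.16 (R 4.3.3; TMM, filterByExpr, Benjamini-Hochberg at 0.05), with DESeq2 1.42.0 as the other tool, after checks on simulated data. Scrublet (scanpy 1.11.5, rate 3%) called 13 cells, 1 of them a neutrophil, which were left out only as an alternative. Thinning and intervals are described where used. Macrophages had at least 3 C1q UMIs.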

Additional observations from a re-analysis of the deposited data

How the results depend on the processing

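The share difference kept its direction under the 7 other settings of cells and members, from -1.47 (members above 1% mitochondrial UMIs left out, an alternative chosen after seeing the data) to -2.42 percentage points. Leaving out each library in turn gave -5.38 to 0.567 points. The count of called genes was 0 in 12 of 15 alternative fits. It was 1 with no filter on low counts, and leaving out each library in turn gave 0 to 22. With the replicate number as a replicate block, 0 genes were called (28 at an unadjusted p under 0.05); deviations of same-numbered libraries correlated at 0.38 over 357 genes, and with 2 pairs the numbers were not taken as pairing the samples. For 17 single genes, 230 of 251 values kept direction and side of the threshold, 6 passed the threshold and 15 changed sign, none of them past the test in either fit. Leaving out each library in turn, the log2 fold change ranged from -0.59 to 0.31 for Cxcl2, from -0.14 to 0.18 for Il1b, from -3.71 to 0.87 for Ccl3, from -5.49 to 1.98 for Ccl4, from -0.17 to 0.48 for S100a8, from 0.0066 to 0.59 for S100a9 and from -0.79 to 0.25 for Retnlg. The sign of the 3 chemokines turned without PV replicate 2 and without CV replicate 1. Il1b also turned to -0.015 with doublets left out and to -0.0075 with no filter, S100a8 to -0.044 at a 2% threshold and Retnlg to 0.13 in thinned cells. The causes were not tested. The alternatives for the test of Cxcl2 states were not run, since no library had enough cells of both states. At 36933 UMIs in the smallest sum, changes in genes with few UMIs were below what this depth can show.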
